A study of Homo sapiens with 19 samples.

Results

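The expressions of the nuclear-encoded subunits of the mitochondrial respiratory chain and of ATP synthase were followed for 72 h after human embryonic stem cells (hESCs) were induced to become brown adipocytes (BAs). The members were chosen by gene symbol: all protein-coding genes whose current RefSeq symbol marks them as a subunit of complex I (NDUFA, NDUFB, NDUFC, NDUFS and NDUFV), complex II (SDHA to SDHD), complex III (UQCR and CYC1), complex IV (COX4I, COX5, COX6, COX7 and COX8) or ATP synthase (ATP5). The rule named 87 genes, of which 86 had a probe on the array, among 20503 genes with a probe. Pseudogenes, which are numerous in these families (186 in the annotation), and read-through genes were left out. Probe sequences were not used here, so cross-hybridization of the members' probes with pseudogenes and near-identical copies was not tested. The rule did not use any measured value.

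The hESC line KhES-3 was cultured in low-attachment dishes in a serum-free BA differentiation medium with IGF-II, BMP4, VEGFA, KITLG, FLT3LG and IL-6, which all samples received. The total RNA of 1 sample at each of 19 time points from 3 to 72 h after induction, spaced by 1 or 2 h up to 16 h, by 4 h up to 36 h and by 6 h from there on, was hybridized to a one-colour Agilent array. There was no sample before induction, no undifferentiated culture kept in parallel and no replicate, so the variation among samples of 1 time could not be measured, and a trend was set against the scatter of single arrays about its fitted line. The labels describe the stem cells as grown on irradiated mouse feeder cells. The arrays lay on 3 slides that followed time: the first held 3 to 12 h (6 arrays), the second 14 to 42 h (8 arrays) and the third 48 to 72 h (5 arrays). The first and second slides were scanned on the same day and the third on another day. Slide and time can therefore not be fully told apart over the series. A comparison of arrays of the first slide with arrays of the third cannot separate time from slide or scan day at all.

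The respiratory chain sits in the inner mitochondrial membrane. Complex I takes electrons from NADH and complex II from succinate, both pass them to ubiquinone, complex III hands them on to cytochrome c, and complex IV delivers them to oxygen. Complexes I, III and IV pump protons, and ATP synthase uses the gradient to make ATP, while brown adipocytes are known for letting the gradient run down through UCP1 to make heat. Most subunits are encoded in the nucleus, a small set in mitochondrial DNA, and complex IV has alternative nuclear isoforms that replace the common one in muscle, lung or testis.

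Nuclear respiratory factor 1 (NRF1), the ETS family factor GABPA and YY1 are well known regulators of these genes, so the promoters were searched first. RefSeq promoter sequences (GRCh38.p14, 250 bases before to 50 bases after the annotated start) were matched for 70 of the 86 members. The letters GCGCATGCG (NRF1), CCGGAAG (ETS, GABPA) and AAGATGGCG (YY1) were searched on both strands, and overlapping matches were allowed. Of the 66 matched promoters other than those of tissue-restricted isoforms, 10 (15.2%) held the NRF1 letters, 20 (30.3%) the ETS letters and 8 (12.1%) the YY1 letters. Among all 27305 promoters of the table the shares were 2.10%, 10.7% and 1.85%, and among the 12874 promoters matched to genes tested here 3.34%, 16.8% and 3.29%. At least 1 of these 3 motifs was found in 31 of the 66 (47.0%) against 13.7% of all promoters and 21.6% of those of genes tested. None of the 4 matched promoters of tissue-restricted isoforms held any of them. Of the other motifs searched, TCAAGGTCA (estrogen-related receptor) was found in 1 of the 66 (1.52%, all promoters 0.359%, genes tested 0.233%) and TGACGTCA (cAMP response element) in 5 (7.58%, all promoters 1.98%, genes tested 2.95%). GGGCGG (SP1) was found in 41 (62.1%), between the 44.6% of all promoters and the 65.5% of the genes tested. A match describes letters in this window and shows no binding.

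The stretches below, all upstream of the start and given in the direction of transcription, were chosen with the values known to show members whose signal fell (NDUFS3, NDUFS7, SDHD, UQCRQ, ATP5MC2, ATP5PF and COX6A1) beside 1 whose slope was close to 0 (UQCR11). They lie at chr11:47578956-47579013 (NDUFS3, plus strand), chr19:1383817-1383857 (NDUFS7, plus), chr11:112086747-112086818 (SDHD, plus), chr5:132866572-132866610 (UQCRQ, plus), chr12:53676100-53676140 (ATP5MC2, minus), chr21:25735062-25735190 (ATP5PF, minus), chr12:120437878-120437918 (COX6A1, plus) and chr19:1605537-1605595 (UQCR11, minus). Capitals mark NRF1 letters in NDUFS7, ATP5MC2 and COX6A1, ETS letters in NDUFS3, UQCRQ and UQCR11, NRF1 then ETS letters in SDHD, and NRF1, YY1 and ETS letters in that order in ATP5PF.
NDUFS3: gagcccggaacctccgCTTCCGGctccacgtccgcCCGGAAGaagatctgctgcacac
NDUFS7: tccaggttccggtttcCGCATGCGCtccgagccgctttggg
SDHD: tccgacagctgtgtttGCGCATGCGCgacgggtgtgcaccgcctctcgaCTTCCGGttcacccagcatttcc
UQCRQ: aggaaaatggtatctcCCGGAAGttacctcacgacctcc
ATP5MC2: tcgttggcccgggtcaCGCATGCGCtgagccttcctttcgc
ATP5PF: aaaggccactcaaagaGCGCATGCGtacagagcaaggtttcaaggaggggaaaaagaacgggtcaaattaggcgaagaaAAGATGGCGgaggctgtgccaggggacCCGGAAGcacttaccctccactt
COX6A1: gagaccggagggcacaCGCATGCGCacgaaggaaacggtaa
UQCR11: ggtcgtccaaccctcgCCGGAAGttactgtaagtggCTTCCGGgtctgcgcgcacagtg

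Signals are processed intensities with the 75th percentile of every array set to 871, and the slope is the change in log2 signal per hour over the 19 arrays, fitted with limma over all detected probes with Benjamini-Hochberg adjustment. Before scaling, the 75th percentile was 936 to 973 at 3, 4 and 6 h and 655 to 776 at 60, 66 and 72 h. Between 49.6% (14 h) and 64.7% (54 h) of the probes were well above background, with 53.8% at 72 h, and no spot was saturated. The stem cell markers POU5F1, NANOG, SOX2, LIN28A and DPPA4 were well above background on all 19 arrays, while the brown adipocyte markers ADIPOQ and FABP4 were not on any array and UCP1 was on 8.

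Of the 86 members, 84 were well above background on all 19 arrays, and 85 were tested. The member not tested was COX7B2, a testis isoform of complex IV whose probe was not well above background on any array. Respiratory chain genes are among the most abundant messages of the cell. Of the 80 tested members other than tissue-restricted isoforms, 69 were among the brightest 10% of all genes, with a median over members of the mean signal of 29850 against 857 over all genes tested.

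Most subunit genes fell slowly. The slope was negative with an adjusted p under 0.05 for 55 of the 85 members (64.7%), against 29.8% of the 16694 genes tested and 53.7% of the brightest 10% of these genes, a background added after seeing the data. The slope was positive for 5 members (5.88%), against 24.6% of all genes and 9.29% of the brightest 10%. The share that fell among the members among this brightest 10% was 47 of 69 (68.1%). The median slope over the 85 members was -0.00573 log2 per hour, that over the brightest 10% of genes -0.00479 and that over all genes -0.000195. The sizes were small. Comparing the means of the log2 signals at 60, 66 and 72 h (late) and at 3, 4 and 6 h (early), the median difference over members was -0.30 (all genes -0.05, brightest 10% -0.28), and the largest ratio of early over late was 1.75-fold. The 3 arrays of a window come from different times and do not replicate each other. All early arrays lay on the first slide and all late ones on the third, which was scanned on another day. Early and late signals, here and below, therefore differ in slide and scan day as well as in time.

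The counts depended on the scaling and on the slide. With normexp background correction and quantile normalization 34 of the 85 members fell and 12 rose, where 4369 of all 16694 genes fell and 3736 rose. With the slide as a block 9 members fell and 1 rose. The 9 are 10.6% of the members, against 5.97% of all genes and 14.9% of the brightest 10% that fell in this fit, and for rises the shares were 4.12% of all genes and 1.2% of the brightest 10%. All 9 were among the 69 members in the brightest 10%. They were NDUFS3, NDUFS1, NDUFS5, NDUFB9, SDHC, UQCRFS1, UQCRC1, ATP5MC1 and ATP5PB, and the fall of no other member was called in this fit. Scaling to the spike-in RNA moved the median slope of all genes to -0.00866, or -0.60 log2 over 69 h, and scaling to the array median moved it to -0.00546. Relative to the median of all genes, the median slope of the 80 members other than tissue-restricted isoforms was -0.00564 with the 75th percentile. The array median and the spike-in RNA gave the same value because a single factor per array shifts all slopes alike, so this agreement is no check. After normexp the relative median was -0.00230, and 54 of the 80 slopes lay below the median of all genes, against 73 with the 75th percentile.

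**Figure D1:**
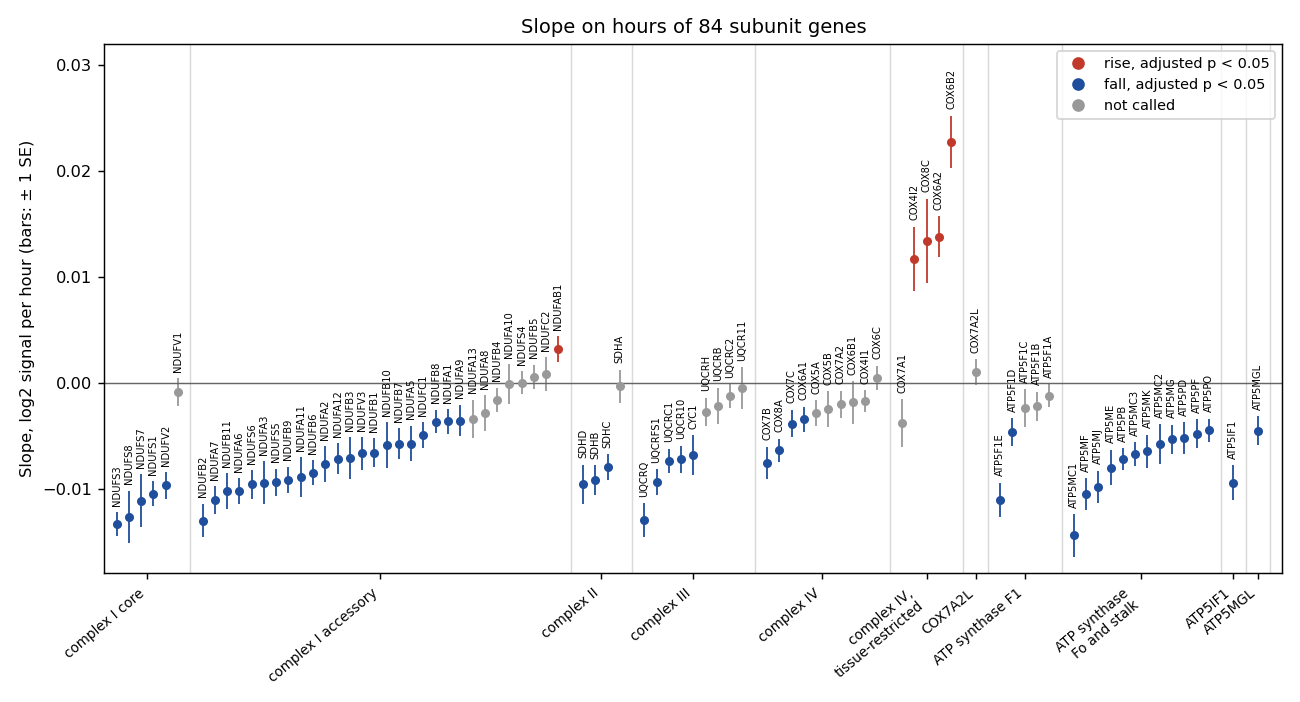
Slope of log2 signal on hours (y axis, log2 per hour) for 84 of the 85 subunit genes tested, grouped by complex and role along the x axis. Points are slopes over 19 arrays, bars are 1 standard error, and colour shows the limma call at an adjusted p of 0.05. Blue points, all below 0, stand for 55 subunits, and 4 of the 5 red points are tissue-restricted isoforms of complex IV, with COX6B2 highest at 0.0228.

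In complex I, the core subunits, which carry the flavin and the iron-sulfur clusters, gave some of the steepest slopes: 5 of 7 fell and 2 did not pass the test. NDUFS3, a core subunit of the peripheral arm, had signals of 18670, 18120 and 17680 at 3, 4 and 6 h and of 10830, 11890 and 9240 at 60, 66 and 72 h. The 3 late values all lay below the 3 early ones, the slope was -0.0133 ± 0.00111 (SE, 19 arrays) with a limma adjusted p of 2.16e-08, and the fall was still called with the slide as a block (slope -0.0151, adjusted p = 0.00522). NDUFS1, the largest iron-sulfur subunit, changed from an early signal of 18480 to a late one of 12010 (slope -0.0105, limma adjusted p = 7.44e-07, and 0.0264 with the slide as a block). NDUFV2, a subunit of the NADH-oxidizing module, changed from 41340 to 26980 (slope -0.00970, limma adjusted p = 5.00e-06, and 0.0728 with the slide as a block).

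NDUFS7 and NDUFS8, which bind the last iron-sulfur clusters before ubiquinone, had a different course. NDUFS8 had an early signal of 29050, a signal of 15120 for the mean log2 of 36, 42 and 48 h, and a late signal of 18660. NDUFS7 had 10950, 5721 and 7206 at the same stages. Both were lowest near the middle of the series, NDUFS8 at 36 h and NDUFS7 at 42 h, and both fell over the whole of it (slopes -0.0127 and -0.0111, limma adjusted p = 2.85e-04 and 0.00111), with adjusted p-values of 0.161 and 0.117 with the slide as a block. NDUFV1, the flavin-binding subunit, had early and late signals of 27470 and 26820 and did not pass the test (limma adjusted p = 0.583).

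Of the 30 accessory subunits of complex I, which surround the core and help to assemble or stabilise it, 22 fell (73.3%), 1 rose and 7 did not pass the test. The shares that fell were 29.8% over all genes and 53.7% over the brightest 10%. The steepest was NDUFB2, whose signals of 61770, 59600 and 62540 at 3, 4 and 6 h compared with 37660, 40750 and 34990 at 60, 66 and 72 h (slope -0.0130, limma adjusted p = 1.99e-06, and 0.0684 with the slide as a block). NDUFA7 changed from an early 37370 to a late 25060 (slope -0.0111, limma adjusted p = 1.39e-06, and 0.0749 with the block). The subunit that rose was NDUFAB1, the mitochondrial acyl carrier protein, which also serves fatty acid and lipoic acid synthesis. Its early and late signals were 48840 and 55690, the slope was 0.00316 with a limma adjusted p of 0.0351, and the sign turned with spike-in or array median scaling (slopes -0.00530 and -0.00210). NDUFS4, NDUFB5, NDUFC2 and NDUFA10, named after their values were seen, had slopes between -0.000129 and 0.000824 on their brightest probes. A dimmer probe of NDUFA10 (mean signal 648) rose, with a slope of 0.00567 (limma adjusted p = 0.0163), and a dimmer probe of NDUFC2 fell (slope -0.0103).

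Complex II oxidizes succinate and belongs to the citric acid cycle as well. Of its 4 subunits, 3 fell. SDHD and SDHC, which anchor the complex in the membrane, changed from 5577 to 3454 and from 15630 to 11360 between the early and late stages (limma adjusted p = 2.66e-04 and 2.70e-05), and the fall of SDHC was still called with the slide as a block (adjusted p = 0.00650) but not that of SDHD (0.170). SDHB, the iron-sulfur subunit, changed from 8327 to 5666 (limma adjusted p = 2.44e-05, and 0.438 with the block). SDHA, the flavoprotein, had early and late signals of 15900 and 16090 and a slope of -0.000336 (limma adjusted p = 0.873). SDHA had 4 tested probes, and 1 of the dimmer ones rose (slope 0.00493, limma adjusted p = 0.00236), while all 3 probes of SDHD fell. The dimmer probes of SDHC did not pass the test (slopes -0.00418 and -0.00247, limma adjusted p = 0.0668 and 0.258).

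In complex III, 5 of 9 subunits fell. UQCRQ, a small subunit that binds ubiquinone, had signals of 83620, 82790 and 87990 at 3, 4 and 6 h and of 50460, 49430 and 54370 at 60, 66 and 72 h. All late values were below all early ones, and the slope was -0.0130 (limma adjusted p = 2.19e-06, and 0.0619 with the slide as a block). UQCRFS1, the Rieske iron-sulfur protein, changed from 50580 to 33730 and UQCRC1, a core protein, from 20340 to 13790, and both falls were also called with the slide as a block (adjusted p = 0.0216 and 0.0273). CYC1, cytochrome c1, changed from 10710 to 7814 (limma adjusted p = 0.00487), and UQCR10 from 70670 to 55460 (limma adjusted p = 1.21e-04). UQCRC2, the other core protein, had 14790 and 14310. UQCRH had 191400 and 181900, UQCRB 33400 and 31220, and UQCR11 56900 and 57640, with limma adjusted p-values from 0.0940 to 0.852 over these 4. A second, less bright probe of UQCRH (mean signal 131700) fell, with a slope of -0.00342 (limma adjusted p = 0.042). So did a dim second probe of UQCRB (mean signal 74.9), with a slope of -0.0095 (limma adjusted p = 0.0091). The probes of UQCRH cannot be separated here from its near-identical paralogue UQCRHL, to which no probe was matched.

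Complex IV, cytochrome c oxidase, had the smallest slopes among the complexes: 4 of the 10 common subunits fell and 6 did not pass the test, with a median slope of -0.00269. That share of 40% lay between the 29.8% of all genes and the 53.7% of the brightest 10% that fell. Whether this differs from the other complexes was not tested. COX4I1, the large regulatory subunit, had signals of 49370, 49190 and 50320 at 3, 4 and 6 h and of 46080, 46940 and 46050 at 60, 66 and 72 h, with the lowest of all arrays, 41960, at 42 h (slope -0.00176, limma adjusted p = 0.158). COX5A, COX5B, COX6B1, COX7A2 and COX6C did not pass the test either, with late minus early differences between -0.14 and 0.12 on the log2 scale. The 4 that fell were COX7B, from an early 40120 to a late 31120, COX8A, from 89010 to 70120, COX7C, from 198300 to 178000, and COX6A1, from 149900 to 137200 (limma adjusted p from 8.89e-05 to 0.0207). COX7A2L, which joins complexes III and IV into supercomplexes, had an early signal of 13740 and a late one of 14800 (slope 0.000984, limma adjusted p = 0.516, sign turned with array median and spike-in scaling).

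In ATP synthase, all 12 subunits of the membrane part (Fo) and of the peripheral stalk fell, with slopes from -0.0144 to -0.00450. Of the 5 subunits of F1, the catalytic head with its central stalk, 2 fell, and whether the parts differ was not tested. Beside the 29.8% of all genes and 53.7% of the brightest 10% that fell, the 12 of Fo and the peripheral stalk had a median mean signal of 74440. With the slide as a block the falls of ATP5MC1 and ATP5PB were called (2 of the 12), and after normexp those of ATP5PB, ATP5PD and ATP5PF were not (adjusted p = 0.165, 0.108 and 0.178). The largest fall of any member was that of ATP5MC1, 1 of 3 genes for the c-ring subunit that carries protons through the membrane. Its signals were 15990, 15820 and 15920 at 3, 4 and 6 h, came to their lowest value of 7795 at 42 h, and were 8737, 9352 and 9259 at 60, 66 and 72 h. The slope was -0.0144 ± 0.00199 (SE, 19 arrays; limma adjusted p = 7.94e-06, and 0.0364 with the slide as a block). The other c-ring genes, ATP5MC3 and ATP5MC2, which encode the same mature protein, changed from 128700 to 99820 and from 91240 to 76800 (limma adjusted p = 5.52e-05 and 0.0156).

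Of F1, the small subunit ATP5F1E (epsilon) changed from 112200 to 75530 (limma adjusted p = 1.75e-05) and ATP5F1D (delta) from 11060 to 8610 (limma adjusted p = 0.00638). ATP5F1A and ATP5F1B, which form the catalytic hexamer, had early and late signals of 80910 and 74680 and of 52450 and 43010, and ATP5F1C, the rotating shaft, of 8643 and 6819. None of the last 3 passed the test (limma adjusted p from 0.186 to 0.35), and the slope of ATP5F1C turned positive over the arrays from 3 to 54 h (0.00171). ATP5IF1, the inhibitor that holds back ATP hydrolysis, changed from 86030 to 58430 (limma adjusted p = 1.07e-04). ATP5MGL, a paralogue nearly identical to the Fo gene ATP5MG, also fell (slope -0.00454), and cross-hybridization between them was not tested.

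The course was not a straight line. The early arrays were level: at 12 h, the median of the 80 members other than tissue-restricted isoforms was -0.01 log2 from the mean of 3, 4 and 6 h, and 45 of the 80 were below their early mean. At 14 h, the first array of the second slide, it was -0.09. It reached -0.22 by 24 h and -0.33 by 42 h, where the brightest 10% of all genes gave -0.18 and -0.27, and the 60 h array gave -0.30. At 72 h it was -0.40, and 74 of the 80 were below, against -0.32 and 70.5% below for the brightest 10% and 53.8% below for all genes. The 32 h array stood out from its neighbours with -0.17, between -0.26 at 28 h and -0.33 at 36 h, and the brightest 10% of all genes was at -0.20, -0.14 and -0.23 on the same arrays. The median of all genes stayed between -0.09 and 0.01. A cubic polynomial in hours, which allows such bends, called 71 of the 85 members as changed by its limma F test, where 79.6% of all genes and 86.2% of the brightest 10% were called.

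**Figure D2:**
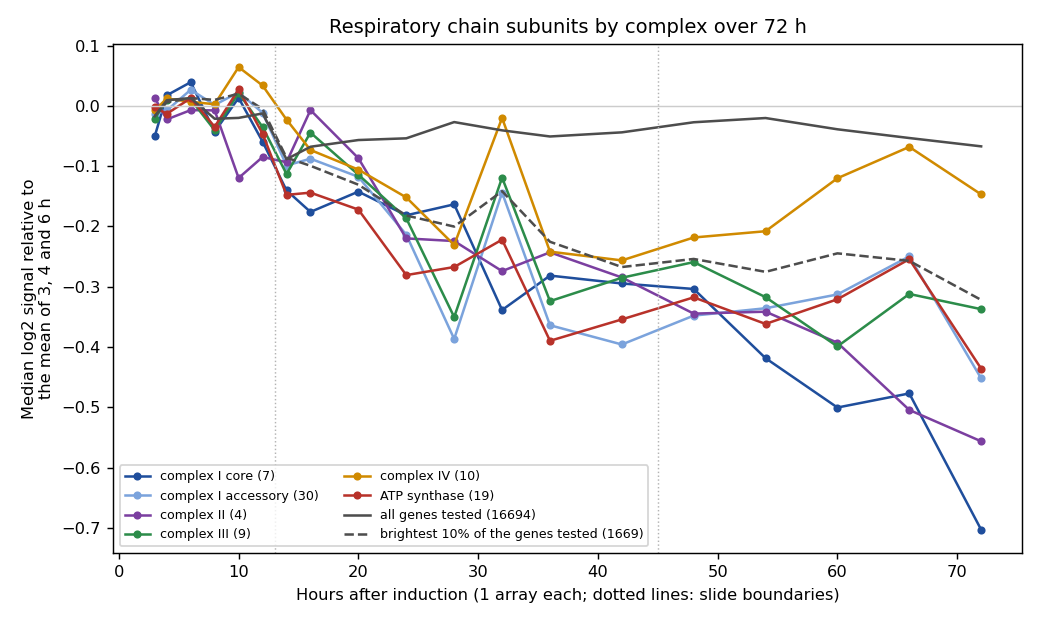
Median log2 signal relative to the mean of 3, 4 and 6 h (y axis) against hours after induction (x axis), by complex, with the number of genes in the legend. Each point is 1 array, grey lines give all genes and the brightest 10%, and dotted lines mark the change of slide. The medians lie between -0.12 and 0.06 up to 12 h, and at 72 h they are -0.70 for the complex I core, -0.56 for complex II and -0.15 for complex IV.

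Between the means of 36, 42 and 48 h and of 60, 66 and 72 h, the median difference was -0.21 log2 for the complex I core and -0.20 for complex II, against 0.01 for the accessory subunits of complex I, -0.00 for complex III, 0.11 for complex IV, 0.03 for ATP synthase and -0.02 for both all genes and the brightest 10%. The 7 core genes of complex I went both ways, with 0.33 for NDUFS7, 0.30 for NDUFS8 and 0.14 for NDUFV1 against -0.41 for NDUFV2 and -0.35 for NDUFS1. These are descriptions without a test. Within the second slide (14 to 42 h), 70 of the 80 members had a negative slope (median -0.00850), whereas within the third slide (48 to 72 h) 38 were negative and 42 positive (median 0.000451), and within the first (3 to 12 h) 35 were negative (median 0.00104). Over all genes tested the slope was negative for 8348 within the second slide and for 8659 within the third, of 16694. Over the brightest 10% it was negative for 1288 within the second (median -0.00647) and for 854 within the third, of 1669. By size, the 8 lowest slopes in the third slide were those of ATP5F1C (-0.0260), NDUFV2 (-0.0234), NDUFA5 (-0.0219), ATP5IF1 (-0.0193), SDHD (-0.0183), UQCRC1 (-0.0174), NDUFS1 (-0.0173) and NDUFA9 (-0.0170), and the 8 highest those of NDUFA10 (0.0220), NDUFB3 (0.0206), NDUFA3 (0.0144), ATP5MC2 (0.0138), NDUFS8 (0.0133), UQCRB (0.0121), NDUFA8 (0.0111) and UQCR11 (0.0111). The 72 h array, 1 of the 5, gave the lowest signal of the series for 22 of the 80 members, and its 53.8% of probes well above background was the lowest share on the third slide, as the 49.6% at 14 h was on the second. Without the 14 and 72 h arrays, an alternative added after seeing the data, 52 members fell and 5 rose, where 4744 of all genes fell and 3985 rose.

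**Figure D3:**
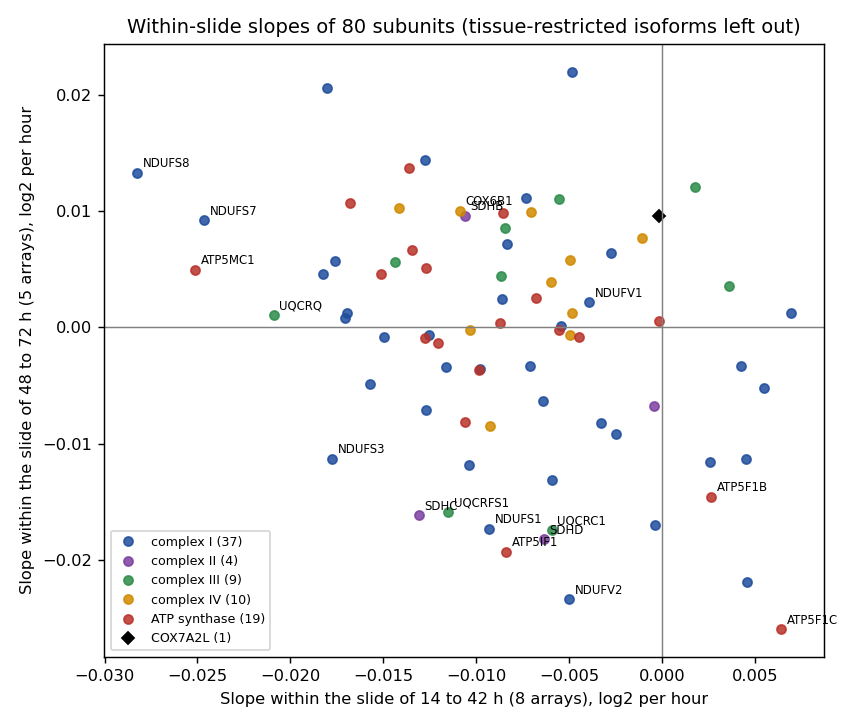
Slope within the slide of 48 to 72 h (y axis, 5 arrays) against the slope within the slide of 14 to 42 h (x axis, 8 arrays), both in log2 per hour, for 80 subunits coloured by complex. Most points lie left of 0, as 70 of 80 slopes are negative in the second slide, while they spread on both sides of 0 in the third, from -0.0260 (ATP5F1C) to 0.0220 (NDUFA10, not labelled).

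The members of a complex moved together to different degrees. The mean pairwise Pearson correlation over the 19 arrays was 0.64 among the 19 genes of ATP synthase, 0.61 among the 10 common subunits of complex IV, 0.53 in the complex I core, 0.44 among its accessory subunits, 0.43 in complex III and 0.34 in complex II. It was 0.19 over the brightest 10% of genes and 0.01 over all genes. After a straight line in hours was removed from each gene, it remained at 0.55 in complex IV and 0.32 in ATP synthase, but was 0.07 in the complex I core and -0.14 in complex II. It was then 0.25 among the accessory subunits of complex I, 0.13 in complex III, 0.08 over the brightest 10% and 0.01 over all genes. The points share the arrays and their scaling, and these values are descriptions.

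Most isoforms of complex IV that are restricted to certain tissues went the other way. Of 5 tested, 4 rose, where 24.6% of all genes rose, and COX7A1 did not pass the test. No background of equally dim genes was used for the dim isoforms COX8C, COX4I2 and COX6A2. Before scaling, the array median was 74.4 beside a 75th percentile of 968 at 3 h, and 71.7 beside 655 at 72 h. What this does to the slopes of dim probes was not tested. COX6B2, a testis isoform of the subunit that links the dimer, was the brightest, with signals of 6174, 6776 and 6186 at 3, 4 and 6 h and of 15020, 22620 and 16260 at 60, 66 and 72 h. All late values were above all early ones, the late over early ratio was 2.77-fold, and the slope was 0.0228 ± 0.00246 (SE, 19 arrays; limma adjusted p = 4.66e-07). The rise was also called after spike-in scaling (adjusted p = 0.0047) and after normexp, and a second, dimmer probe of the gene rose as well (slope 0.0102, limma adjusted p = 5.30e-04), while blocking on the slide gave an adjusted p of 0.108. The change from 5801 at 12 h to 11410 at 14 h coincides with that from the first to the second slide. The signal was lower again afterwards, with 7738, 9735 and 8949 at 16, 20 and 24 h.

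COX6A2, the heart and skeletal muscle isoform, was dim, with signals of 137, 163 and 131 at 3, 4 and 6 h and of 247, 268 and 320 at 60, 66 and 72 h. The values up to 48 h lay between 131 and 180, and all later ones were at least 225. It was the 1 member whose rise was called with the slide as a block (limma adjusted p = 0.0212), and it was not called after spike-in scaling (adjusted p = 0.186). COX4I2, a lung isoform known to be induced by low oxygen, had an early signal of 77.0 with its lowest value of 63.9 at 6 h, a highest value of 163 at 32 h, and 146, 120 and 112 at 60, 66 and 72 h (limma adjusted p = 0.00327). COX8C, another testis isoform, had an early signal of 51.9 and a late one of 123 (limma adjusted p = 0.00829). Neither of these 2 rises was called with array median, spike-in or normexp values or with the slide as a block.

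COX7A1, the muscle and brown fat isoform, had 1522, 1570 and 1618 at 3, 4 and 6 h, its lowest value of 971 at 28 h, and 1284, 1349 and 1411 at 60, 66 and 72 h. Its slope was -0.00380 (limma adjusted p = 0.163), and over the arrays from 3 to 54 h it fell (slope -0.0111, limma adjusted p = 0.0033). Taken within each array, a single scaling factor per array drops out, but a correction that depends on intensity does not. The late minus early change of the isoform minus that of its common partner was 1.52 log2 for COX6B2 against COX6B1, 1.08 for COX6A2 against COX6A1, 0.80 for COX4I2 against COX4I1, 1.59 for COX8C against COX8A and -0.16 for COX7A1 against COX7A2. After normexp, the slopes of isoform and partner were 0.0273 and 0.00271 for COX6B2, and 0.00756 and -0.00129 for COX6A2. They were 0.00375 and 0.0021 for COX4I2, 0.00354 and -0.00452 for COX8C, and -0.00231 and -0.00143 for COX7A1. These differences have no test, and 3 of the isoforms are dim enough for the background to weigh on them.

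Markers of muscle were given beside these isoforms. Of 8 such genes 7 were tested, of which CKM and MYOG rose and TNNT2 fell, and their summed signal was 1480 to 1562 at 3, 4 and 6 h and 1676 to 1965 at 60, 66 and 72 h. Neither rise was called with the slide as a block. Over all genes 24.6% rose and 29.8% fell. MYH6 was not well above background on any array. The summed signal of 6 brown adipocyte markers was 140 to 166 early and 141 to 153 late, and PPARG was the 1 member of that list that rose. The 4 tested genes of that list were dim, with mean signals of 27.8 to 37.95, and none rose with the slide as a block. The part of other cells in the isoform signals was not tested.

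COXFA4 and COXFA4L2, formerly NDUFA4 and NDUFA4L2, are a further pair of complex IV subunits that the rule does not take. COXFA4 had early and late signals of 154100 and 149800 (limma adjusted p = 0.398). COXFA4L2, a known target of hypoxia-inducible factor, had 485, 398 and 244 at 3, 4 and 6 h, a highest value of 1135 at 36 h, and 849, 887 and 849 at 60, 66 and 72 h (slope 0.0249, limma adjusted p = 7.41e-04, and 0.113 with the slide as a block). Of 11 other genes known to respond to hypoxia, 2 rose (BNIP3 and LDHA), 1 fell (EGLN3) and 8 did not pass the test, with a median slope of 0.00297. The shares over all genes were 24.6% rising and 29.8% falling.

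The genes around the respiratory chain were compared from lists of known function. Of 49 tested assembly factors, which build the complexes without staying in them, 28 fell (57.1%) and 7 rose (14.3%), with a median slope of -0.00568, where 29.8% of all genes and 53.7% of the brightest 10% fell and 24.6% and 9.29% rose. With the slide as a block 5 fell and 1 rose. By slope, the largest falls were NDUFAF6, from an early 1893 to a late 961, and PET117, from 6279 to 3481. By slope, the largest rises were UQCC1, a complex III factor, from 1662 to 3307, and NDUFAF3, a complex I factor, from 10720 to 18220 (limma adjusted p = 2.80e-07 and 3.56e-04). The rise of NDUFAF3 was also called with the slide as a block (adjusted p = 0.0457) but not after spike-in scaling (0.304). Of 18 citric acid cycle and pyruvate dehydrogenase genes, 10 fell (55.6%) and 8 did not pass the test, and 4 fell with the slide as a block. IDH3A (972 to 493) and PDHB (19690 to 12040) had the steepest slopes.

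Among carriers and uncoupling genes, 5 of 11 fell and 1 rose, where 29.8% of all genes fell and 24.6% rose. Cytochrome c (CYCS), the soluble carrier between complexes III and IV, changed from signals of 16810, 16260 and 17900 at 3, 4 and 6 h to 9622, 8623 and 8714 at 60, 66 and 72 h. Its slope of -0.0155 was steeper than that of any member (limma adjusted p = 7.48e-08, and 0.00623 with the slide as a block). VDAC1, the outer membrane channel, changed from 29170 to 22150 and fell, and the adenine nucleotide carrier SLC25A4 rose, from 8764 to 9686 (limma adjusted p = 0.00883 and 0.0400). UCP1 had early and late signals of 37.4 and 23.9 and was well above background on 8 arrays (limma adjusted p = 0.223).

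Of the 18 regulators of mitochondrial biogenesis, 8 fell (44.4%), 3 rose (16.7%) and 7 did not pass the test, where 29.8% of all genes fell and 24.6% rose. With the slide as a block 1 of the 18 fell, where 5.97% of all genes did. TFAM, which packages and transcribes mitochondrial DNA, changed from 14330 to 7533 (slope -0.0169, limma adjusted p = 5.70e-06), and GABPB1, the partner of GABPA, from 1421 to 736. GABPA changed from 1051 to 781, NRF1 from 309 to 227 and the coactivator PPARGC1A from 137 to 88.2 (limma adjusted p = 0.00196, 0.00119 and 0.00380), and all 3 fell. ESRRA had 7335 and 6216 and did not pass the test (limma adjusted p = 0.223), while the related receptors ESRRB and ESRRG, both dim, rose. Neither rise was called with spike-in scaling (adjusted p = 0.389 and 0.844), with normexp (0.194 and 0.367) or with the slide as a block (0.822 and 0.806). Of TFAM, GABPA, NRF1 and PPARGC1A, the fall of PPARGC1A, whose probe is dim, was also called with the slide as a block (adjusted p = 0.0195), but not over the arrays from 3 to 54 h (slope -0.00325, adjusted p = 0.421). The median slope of members with and without the NRF1 letters in the promoter was -0.00529 and -0.00643, with and without the ETS letters -0.00528 and -0.00690, and with and without the YY1 letters -0.00829 and -0.00584, given as descriptions.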

How the data were processed

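Total RNA of KhES-3 cells at 19 time points was labelled with Cy3 and hybridized to SurePrint G3 Human arrays. The authors deposited the Agilent Feature Extraction output (version 10.10.1.1 per the submitters' processing notes), in which the processed intensity of each spot is background-subtracted, and a table of intensities equal to it times 1 factor per array. The authors deposited the other columns used (0 or 1 flags and the raw median pixel intensities of spot and background) in the same output.

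Flagged spots (0.632% of those that are not controls) were left out, copies of a probe were averaged, and log2 intensities were scaled by the 75th percentile of each array. Of 50683 probes, 28174 were matched through their accession to RefSeq symbols. The brightest probe stood for a gene, and signals were rounded to 4 significant digits. Slopes on hours and a cubic polynomial were estimated by limma 3.58.1 (R 4.3.3) for 32113 probes, those called well above background in 5 arrays or more, with Benjamini-Hochberg adjustment and a threshold of 0.05. The fit was checked on simulated data. Python 3.11.15, numpy 2.4.6, pandas 2.3.3 and matplotlib 3.10.9 made tables and figures. The p-values measure scatter around the trend of single samples and assume independent arrays. Precision is limited by there being 19 arrays.

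The members and gene lists were chosen with earlier results of these data known. Named were all core or catalytic subunits, complex II and III, tissue-restricted isoforms with their partners, COX7A2L, ATP5IF1, members not tested, the 8 largest called rises and falls, and in other lists the 2 largest called rises and falls plus 6 regulators. The alternatives were other scalings (array median, spike-in RNA, normexp with offset 50 and quantile normalization, run on the median pixel intensity), the deposited table, other filters, log2 hours, the slide as a block, 3 to 54 h, the mean of probes, a Spearman correlation, and each array left out. The use of median pixels, the exclusion of the 14 and 72 h arrays and the brightest 10% of genes as a background were chosen after seeing the data. 1 named member is not reported here. Later time points, blots and animal experiments were not analysed here.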

Additional observations from a re-analysis of the deposited data

How the results depend on the processing

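The count of members that rose (5) was 2 with array median scaling, 1 with spike-in RNA, 12 with normexp, 1 with the slide as a block and 3 over 3 to 54 h. Over all genes the count that rose (4101) was 1771, 600, 3736, 688 and 3944 in the same order. The count that fell (55) was 34 with normexp and 9 with the slide as a block, and that over all genes (4979) was 4369 and 996. With array median scaling and spike-in RNA, 7426 and 7436 of all genes fell. The median slope (-0.00573) was -0.011 with array median scaling, -0.0142 with spike-in RNA, -0.00231 with normexp and -0.00736 over 3 to 54 h. By the cubic, 71 members were called, and 28 after blocking on the slide, for which no share over all genes is given here. The late minus early median (-0.30) was -0.67 with array median scaling, -0.94 with spike-in RNA and -0.14 with normexp. The scalings by array median and spike-in RNA shift all genes alike; the cause of the other changes was not tested. Leaving out 1 array at a time gave 4 to 5 rises, 51 to 56 falls and median slopes from -0.00629 to -0.00526.

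Signs of single slopes turned, with normexp, for NDUFV1 (0.00317), SDHA (0.00459), UQCRB (0.00151), UQCRC2 (0.00371), UQCR11 (0.00329), ATP5F1C (0.00153), ATP5F1B (0.00222), ATP5F1A (0.000759), COX4I1 (0.0021) and COX6B1 (0.00271). They turned with the slide as a block for UQCRB (0.00536), UQCRC2 (0.00351) and UQCR11 (0.000466), over 3 to 54 h for SDHA (0.00301), ATP5F1C (0.00171) and COX7A2L (-0.00202), and for COX7A2L and NDUFAB1 with array median (-0.00428, -0.0021) and spike-in scaling (-0.00748, -0.0053). SDHA turned with log2 hours (0.0191), the mean of its probes (0.00182) and without the 14 and 72 h arrays (0.000861). With 1 array left out, the slope of SDHA ranged from -0.0011 to 0.000582 and that of UQCR11 from -0.00191 to 2.36e-05. Besides these, 3 members that fell, named after their values were seen, turned with normexp: NDUFB8 (0.00123), NDUFA1 (9.25e-06) and NDUFA9 (1.61e-05), and NDUFA9 also over 3 to 54 h (0.000311). The rise of NDUFAB1 was lost without any 1 of the 3, 4, 48, 54, 60 or 66 h arrays. With the slide as a block, 20 of the 41 named slopes lost their call. No paired analysis was possible because the 19 time points have 1 array apiece. The dim isoforms COX4I2, COX8C and COX6A2 lie close enough to the background for it to limit them.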

Other observations

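Among long noncoding RNAs named after members, NDUFA6-DT and NDUFB2-AS1 had probes. NDUFA6-DT is by its name the divergent transcript of NDUFA6. NDUFA6 fell from an early signal of 29650 to a late one of 19820, while 3 of the 4 probes of NDUFA6-DT rose, the brightest from 197 to 601 (slope 0.0216, limma adjusted p = 0.0120). NDUFB2 fell from 61290 to 37730, while the probe of its antisense transcript NDUFB2-AS1 rose from 261 to 421 (limma adjusted p = 0.00816). None of these 4 rises was called with the slide as a block (adjusted p = 0.834, 0.771, 0.206 and 0.696) or after spike-in scaling (adjusted p from 0.122 to 0.898).

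Of the 18 members with more than 1 tested probe, 14 had slopes of the same sign on all of them, and no member had 1 probe called as a rise and another as a fall. The bright probe of NDUFC2 (geometric mean signal 20190) had a slope of 0.000824 without a call, and a probe for another transcript of the gene (775) fell with a slope of -0.0103 (limma adjusted p = 9.16e-04). For UQCR10, slopes of the 3 probes were -0.00722, -0.00298 and -0.0152.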
